A study of Mus musculus with 5 samples.

Results

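The genes described here are 9 that mark lipid-associated macrophages, the phagocytes that take up and handle lipid in damaged or lipid-rich tissue: Apoe, Trem2, Gpnmb, Lpl, Fabp5, Cd9, Abca1, Abcg1 and Cd36. They were taken as a list of symbols, and each symbol was found among the 28692 gene identifiers of the droplet libraries. The study took mouse kidneys during unilateral ureteric obstruction (UUO), an experimental blockage of a ureter that causes inflammation and fibrosis, and after the obstruction had been lifted. The kidneys came from C57/BL6 mice aged 8 weeks and gave 4 droplet libraries. Sham-operated kidneys were taken on day 0, obstructed kidneys 2 and 7 days after UUO, and reversed kidneys on experimental day 14, which was 7 days after reversal. A further sample held 768 Smart-seq2 wells on 8 plates with the time points mixed. Each of the 5 samples pooled 3 mice, and live cells were sorted on DAPI.

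With 1 library per time point there was no replicate and no test was made. All intervals are 95% intervals for counting error only, and differences between mice, batches and surgery cannot be told apart from the time point.

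In tissue phagocytes, lipid reaches the cell through scavenger receptors and by hydrolysis of lipoproteins, is carried inside by fatty acid binding proteins, and leaves by transporters that load cholesterol onto apolipoproteins. Apoe is the apolipoprotein that accepts this cholesterol, and Abca1 and Abcg1 are the transporters, whose transcription is switched on by sterol-sensing nuclear receptors (the LXR proteins). Trem2 is a surface receptor for lipids and lipoproteins that signals through Tyrobp, Lpl is lipoprotein lipase, Cd36 is a fatty acid and lipoprotein scavenger receptor, and Fabp5 is a fatty acid binding protein. Gpnmb is a membrane glycoprotein linked to lysosomes, and Cd9 is a tetraspanin of the cell surface.

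The promoters of Abca1 and Gpnmb are shown because Abca1 is the best known sterol target among the 9 genes and Gpnmb was the gene with the largest difference between the reversed and the day 7 library. RefSeq windows (GRCm38.p6, 250 bases before to 50 after the start site) matched 6 of the 9 genes, in 8 windows. Lpl, Fabp5 and Abcg1 had no entry. Each is printed on the gene's own strand, 5′ to 3′, with the motif match in capitals.
Abca1: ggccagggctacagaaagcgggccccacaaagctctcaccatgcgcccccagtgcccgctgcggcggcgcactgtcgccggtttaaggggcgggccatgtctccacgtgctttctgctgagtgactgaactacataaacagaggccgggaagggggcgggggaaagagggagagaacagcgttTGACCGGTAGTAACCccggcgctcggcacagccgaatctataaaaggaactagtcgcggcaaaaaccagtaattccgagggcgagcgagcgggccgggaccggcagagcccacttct
Gpnmb: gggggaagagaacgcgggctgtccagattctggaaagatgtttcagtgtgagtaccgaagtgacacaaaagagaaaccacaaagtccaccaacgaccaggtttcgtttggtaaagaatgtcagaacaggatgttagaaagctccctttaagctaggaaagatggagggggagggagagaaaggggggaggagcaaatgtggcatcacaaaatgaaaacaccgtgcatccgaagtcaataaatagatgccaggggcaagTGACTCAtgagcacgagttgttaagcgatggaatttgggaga
The Abca1 window is chr4:53159846-53160145 (minus strand), and its capitals match the DR4-type sterol receptor element, the letters GGTTA and GGTCA separated by 5 bases, on the reverse strand, with the first base at position -67 from the start site. This motif was found on either strand in 16 of 32851 windows (0.0487%). The Gpnmb window is chr6:49036268-49036567 (plus strand), and its capitals match the AP-1 element TGAGTCA on the reverse strand at position 9, a motif held by 5.20% of windows. Exact direct repeats of AGGTCA separated by 4 bases (DR4) or by 1 base (DR1) were found in 0 of the 8 windows on either strand. A match is a description of letters and not of a bound site.

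By the GENCODE M21 annotation of GRCm38, all 9 are protein-coding genes. Apoe lies at chr7:19696109-19699188, Trem2 at chr17:48346401-48354147, Gpnmb at chr6:49036546-49070929, Lpl at chr8:68880491-68907448 and Fabp5 at chr3:10012548-10016607. Cd9 lies at chr6:125460266-125494791, Abca1 at chr4:53030787-53159895, Abcg1 at chr17:31057675-31117988 and Cd36 at chr5:17781690-17888801. The Abca1 promoter window overlaps the 5′ end of the annotated gene, and so does that of Gpnmb.

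The droplet libraries held 2739 to 5938 barcodes and 18649637 to 30462683 UMIs, where a UMI is a molecular tag that counts 1 captured transcript. Median mitochondrial shares were 40.6% in sham, 16.2% at day 2, 3.00% at day 7 and 14.0% after reversal, so this sign of cell and RNA quality differed between time points. Any 2 libraries shared 16 to 39 barcodes. Mononuclear phagocytes, called from clusters made without the 9 genes, numbered 69 in sham, 539 at day 2, 2342 at day 7 and 636 after reversal, with 256184, 6015116, 16492676 and 5022879 UMIs. The sham values therefore rest on few cells. Before doublets were removed, the phagocyte cluster with the largest share of cells was led by Ms4a7, Ccl8 and C1qc in sham, day 7 and reversed libraries (44.9%, 48.2% and 33.6%).

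Levels are given in CPM, the UMIs of a gene per 1000000 UMIs, both summed over the cells of a class in a library. Log2 ratios were taken after adding 1 CPM, which understates differences of low genes.

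The label of macrophage genes held in full for only some of the 9. Apoe and Trem2 were higher in phagocytes than in every other named class of at least 20 cells in 4 of 4 libraries, with intervals clear of all others in 4 and 3 libraries. Cd9, Abca1 and Lpl were highest in phagocytes in 0 of 4 libraries. Gpnmb, Fabp5, Abcg1 and Cd36 led in 1 library each. For Gpnmb and Abcg1 the intervals of another class overlapped that of the phagocytes there.

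Cd9 was 635 to 772 CPM in endothelium against 137 to 263 CPM in phagocytes, and reached 1833 CPM in 26 neutrophils of the reversed library. Abca1 was 91.8 CPM in day 7 endothelium against 41.4 CPM in phagocytes. Lpl was 707 CPM in reversed fibroblast or mural cells, 353 CPM in sham endothelium and 216 CPM in sham proximal tubule. Cd36 was 221 CPM in day 7 proximal tubule, which takes up fatty acids as fuel, against 58.0 CPM in day 7 phagocytes.

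**Figure D1:**
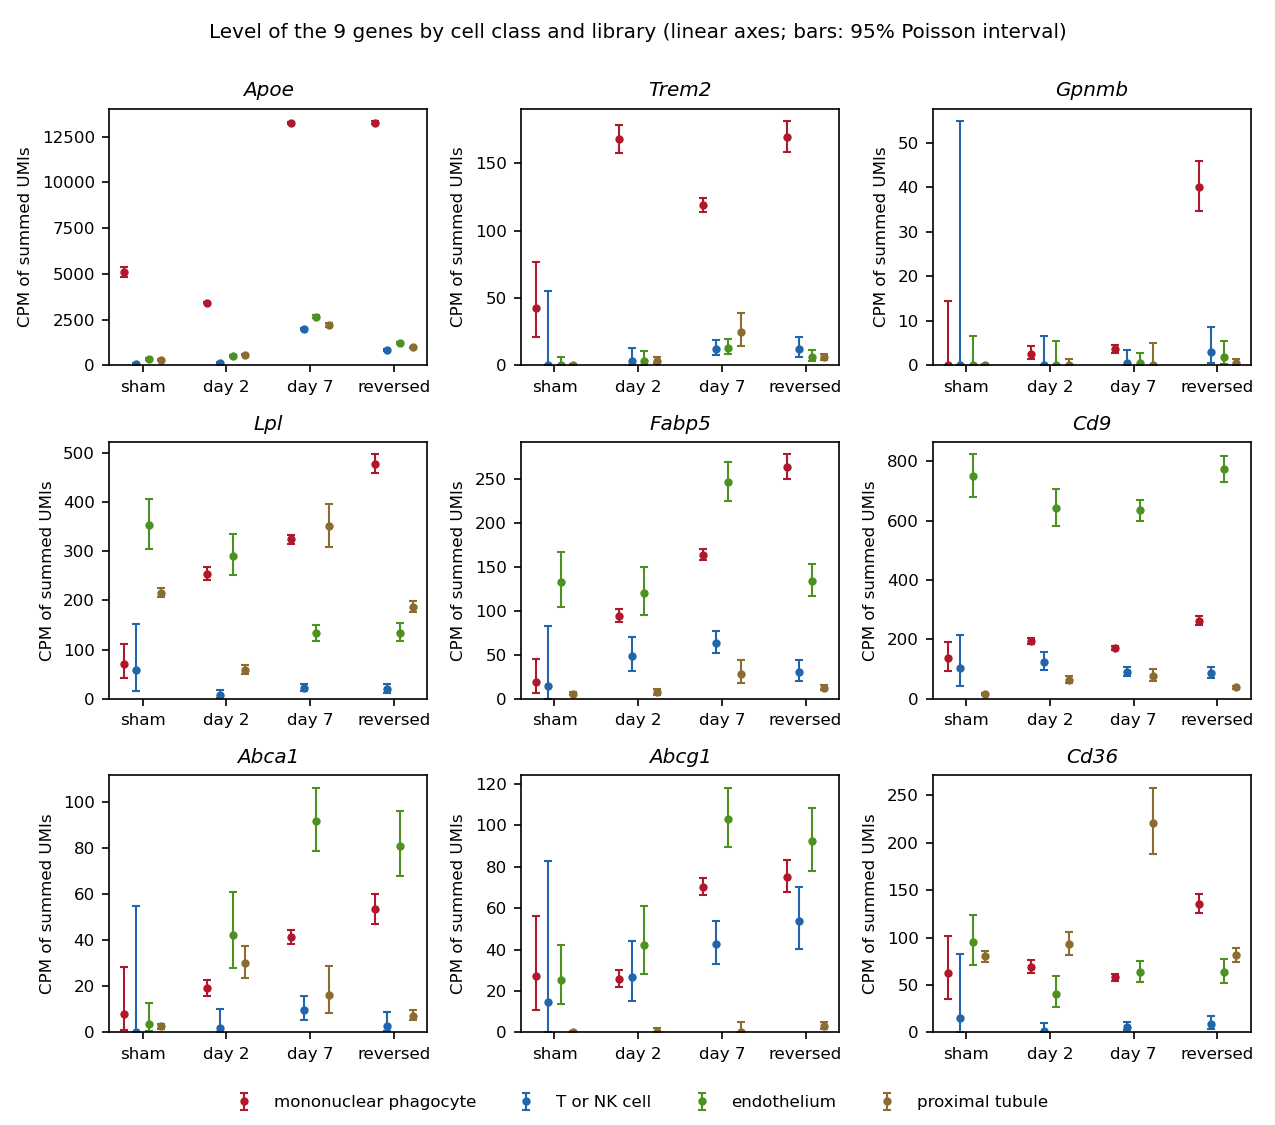
Level of each gene (CPM of summed UMIs, linear axis) in 4 cell classes and 4 droplet libraries, with 95% Poisson intervals as bars. Apoe and Trem2 are highest in phagocytes throughout, whereas Cd9 is highest in endothelium, near 635 to 772 CPM, in every library among the 4 classes drawn.

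Free RNA, transcripts released from broken cells and captured in every droplet, was read from genes a class should lack. The phagocyte genes C1qa, C1qb and C1qc stood in T or NK cells at 0.699% of their phagocyte level in sham, 3.19% at day 2, 10.7% at day 7 and 4.05% after reversal. In proximal tubule these shares were 0.340%, 2.76%, 11.1% and 3.59%. These unrelated classes had similar shares, highest at day 7, read here as the free phagocyte RNA of each library. Neutrophils (6.94% to 21.1%) and reversed and day 7 B cells (16.1% and 16.2%) were above them.

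Most of the Apoe read in lymphocytes lay within this share. Its level in T or NK cells was 59.5, 134, 1985 and 826 CPM in sham, day 2, day 7 and reversed libraries, and the share above times the phagocyte level would give 35.7, 110, 1409 and 538 CPM. An Apoe UMI was present in 100% of day 7 T or NK cells (median 3468 UMIs) against almost every day 7 phagocyte, 2341 of 2342 cells (median 6555 UMIs). Thinned to 1000 UMIs per cell, the shares were 85.7% and 95.8%. Detection of Apoe in a cell therefore separated the classes poorly at day 7, unlike its level. Trem2 in day 7 T or NK cells stood at 12.2 CPM, where the free share gives 12.7 CPM. Lpl there stood at 21.9 CPM against 34.6 CPM, and Cd36 at 6.09 CPM against 6.17 CPM. In sham, Lpl was as high in 28 T or NK cells (59.5 CPM, 4 UMIs) as in phagocytes within counting error (70.3 CPM, 18 UMIs), so sham Lpl did not separate the classes.

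For Cd9, Abcg1, Fabp5 and Abca1 the day 7 T or NK level was above that share. Cd9 was 92.0 CPM in day 7 T or NK cells where the share gives 18.3 CPM, and Abcg1 was 42.6 CPM where it gives 7.48 CPM. Fabp5 was 63.3 CPM against 17.5 CPM, and Abca1 9.75 CPM against 4.41 CPM. After thinning, 11.9% of day 7 phagocytes and 9.35% of T or NK cells had a Cd9 UMI, and 8.07% and 5.45% had an Abcg1 UMI. Detection of Cd9 and Abcg1 set phagocytes apart from lymphocytes only weakly.

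The reverse flow, tubule RNA in phagocytes, was largest in sham. Proximal tubule genes stood in phagocytes at 12.7% of their tubule level in sham, 1.95% at day 2, 0.819% at day 7 and 5.31% after reversal. That share equals 39.1% of the Lpl level and 16.3% of the Cd36 level of sham phagocytes, and at most 4.25% of any other of the 9 genes. In the other libraries it equals at most 3.19% of any member's level. The 7 other sham values thus hold little proximal tubule RNA by this measure.

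Apoe, the cholesterol acceptor, was lowest at day 2 and high at day 7 and after reversal. Phagocyte levels were 5110 CPM in sham, 3435 CPM at day 2, 13225 CPM at day 7 and 13264 CPM after reversal. The sham level lay between that of day 2 and those of the later libraries. Day 2 against sham gave a log2 ratio of -0.57 (-0.65 to -0.49), and day 7 against day 2 gave 1.94 (1.92 to 1.97). Reversed against day 7 was 0.00 (-0.01 to 0.02), and reversed against sham 1.38 (1.30 to 1.46).

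The transporters Abca1 and Abcg1 were also higher at day 7 than at day 2. Abca1 was 7.81 CPM in sham (2 UMIs), 19.1 CPM at day 2, 41.4 CPM at day 7 and 53.4 CPM after reversal. Abcg1 was 27.3 CPM in sham (7 UMIs), 25.8 CPM at day 2, 70.2 CPM at day 7 and 75.1 CPM after reversal. Day 7 against day 2 gave log2 ratios of 1.08 (0.80 to 1.36) for Abca1 and 1.41 (1.18 to 1.65) for Abcg1. Between day 7 and the reversed library both differed little: 0.36 (0.15 to 0.56) for Abca1 and 0.09 (-0.07 to 0.26) for Abcg1. The Abca1 ratio of day 2 to sham was 2.45-fold with an interval from 0.66 to 20.5, so its direction was not resolved.

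Trem2, the lipid receptor, had another order, with day 2 and reversed high. It was 42.9 CPM in sham (11 UMIs), 168 CPM at day 2, 119 CPM at day 7 and 170 CPM after reversal. Day 2 against sham gave 1.94 (1.11 to 2.92), day 7 against day 2 gave -0.49 (-0.60 to -0.38), and the reversed library stood 0.51 (0.39 to 0.62) above day 7. In the reversed library 41.4% of phagocytes (median 6794.5 UMIs) and 4.01% of T or NK cells (median 3169.5 UMIs) had a Trem2 UMI. After thinning these were 12.6% and 1.46%.

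Summed over all phagocytes, the uptake and carrier genes Lpl and Fabp5 were each higher in every later library than in the one before. Lpl was 70.3 CPM in sham (18 UMIs), 254 CPM at day 2, 324 CPM at day 7 and 478 CPM after reversal. Fabp5 was 19.5 CPM in sham (5 UMIs), 94.6 CPM at day 2, 164 CPM at day 7 and 263 CPM after reversal. The share of cells went the other way between the last 2 libraries, with a Fabp5 UMI in 684 of 2342 day 7 and 148 of 636 reversed phagocytes. Reversed against day 7 gave 0.56 (0.49 to 0.63) for Lpl and 0.68 (0.59 to 0.78) for Fabp5. A few cells carried much of Fabp5: in the reversed library 3 cells held 27.8% of its UMIs, and 8 cells held 50% or more. Without the 3 highest cells of each library the Fabp5 ratio was 0.39. At day 7, 105 Ccr7 dendritic cells, described below, held 1440 of the 2702 Fabp5 UMIs, and after reversal 32 such cells held 337 of 1323.

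Cd36 was higher after reversal than at day 7. Its levels were 62.5 CPM in sham (16 UMIs), 69.0 CPM at day 2, 58.0 CPM at day 7 and 136 CPM after reversal. Reversed against day 7 gave 1.21 (1.07 to 1.36). With each cell weighted equally the ratio was 0.99. Reversed against sham gave 1.11 (0.41 to 1.91), but 0.05 after thinning and 0.22 with equal weights, so the difference was under 2-fold in those readings. Cd9 ranged from 137 CPM in sham (35 UMIs) to 194 CPM at day 2, 171 CPM at day 7 and 263 CPM after reversal, and reversed against day 7 gave 0.61 (0.52 to 0.71).

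Gpnmb stood apart in size. It had 0 UMIs in sham phagocytes, which allows up to 11.7 CPM at 3 counts, 2.66 CPM at day 2 (16 UMIs), 3.64 CPM at day 7 (60 UMIs) and 40.02 CPM after reversal (201 UMIs). Reversed against day 7 gave a log2 ratio of 3.14 (2.79 to 3.50), and against the sham floor the reversed level was at least 3.42-fold higher. Day 2 was under the sham floor and no fold is given. Without the 3 cells of each library that held the most Gpnmb, the reversed level was 15.5 CPM and the log2 ratio to day 7 was 2.30.

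Counts of the 9 genes past 2-fold are given beside the share of all genes past it. In day 2 against sham, 4 of the 8 genes with at least 30 UMIs (Gpnmb had too few) were at least 2-fold higher (Trem2, Lpl, Fabp5 and Abca1, the last from 2 sham UMIs), against 17.7% of 9056 genes tested, and 0 were at least 2-fold lower, against 8.45%. In day 7 against day 2, 3 of 9 (Apoe, Abca1 and Abcg1) were higher by that rule, against 7.09% of 11659 genes, and 0 lower, against 2.77%. In reversed against day 7, 2 of 9 (Gpnmb and Cd36) were higher, against 2.44% of 11770 genes, and 0 lower, against 0.680%. In reversed against sham, 8 of 9 were higher, all but Cd9, against 16.9% of 9154 genes, and 0 lower, against 4.96%. That count includes Cd36, whose call was lost on thinning and with equal weights, and sham counts of 0 (Gpnmb), 2 (Abca1), 5 (Fabp5) and 7 (Abcg1) UMIs. The reversed library serves in 2 of these 4 comparisons, as do the sham, day 2 and day 7 libraries, so they do not stand for independent samples.

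In the same order of comparisons, the median log2 ratio of these genes was 0.85, 0.35, 0.56 and 1.77, the last with Gpnmb at its lower bound. The medians of all genes tested were 0.16, 0.04, -0.02 and 0.12. For reversed against day 7 the count was 1 in place of 2 when cells were thinned, weighted equally or held at the day 7 gate mix, since Cd36 was then under 2-fold (0.91, 0.99 and 0.77).

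Phagocytes were next split into gates, ranges of marker counts per cell taken in a fixed order. A gate is named for its markers (type 1 dendritic from Xcr1, Clec9a and Wdfy4, for example) and holds whatever cells meet it. Only gates of at least 20 cells in a library are compared, and sham passed this for the C1q gate alone, with 23 cells. The C1q gate held 79 cells at day 2, 942 at day 7 and 263 after reversal, and the Mmp12 gate (a macrophage metalloelastase) held 21, 117 and 71. The gate on Ly6c2 monocyte markers held 214, 370 and 35 cells.

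A gate name did not stand for the same cells at each time point. In the Ly6c2 monocyte gate the median of its own markers was 20.8 per 10000 UMIs at day 2, 5.89 at day 7 and 17.8 after reversal, while that of the C1q genes was 3.02, 99.3 and 12.7. At day 7 most of its cells were thus far above the C1q threshold of 20, and 330 day 7 phagocytes lay within 25% of the Ly6c2 threshold. In the Ace-type monocyte gate the median of the C1q genes was 4.20, 134 and 89.8 per 10000 UMIs, and that of the Ly6c2 markers 23.8, 1.96 and 0.876. Differences within these gates therefore compare cells of unlike marker content. For the Mmp12 markers, 73 day 7 and 11 reversed phagocytes lay within 25% of the threshold.

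Apoe was highest in the C1q gate at day 7 and after reversal, at 22184 and 27745 CPM, and stood at 13589 CPM in the sham C1q gate. At day 2 the same gate stood at 3163 CPM, below the 5618 CPM of the Ly6c2 monocyte gate. The day 7 to day 2 difference was found in each of the 6 gates compared, from 1.26 in the Ly6c2 monocyte gate to 4.51 in the type 2 dendritic gate (378 to 8655 CPM). Free RNA also moved with this comparison: the C1q share in T or NK cells was 3.19% at day 2 and 10.7% at day 7, and day 7 T or NK cells held 1985 CPM of Apoe. The C1q genes moved with it inside gates too, from a median of 3.02 to 99.3 per 10000 UMIs in the Ly6c2 monocyte gate and from 1.13 to 14.4 in the type 2 dendritic gate. With an estimate of free RNA subtracted from each library, the ratio of all phagocytes was 1.98 in place of 1.94. That estimate was set by proximal tubule genes (9.08% at day 2 and 19.4% at day 7) and used the profile of the whole library. The profile includes the phagocytes themselves, so this reading cannot separate Apoe that passed from C1q-rich cells to other gates. The part of the C1q-rich cells in the difference was not tested.

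Lpl set the Mmp12 gate apart at day 7 and after reversal. Its level there was 360 CPM at day 2, 1617 CPM at day 7 and 1490 CPM after reversal, while the C1q gate held 422, 265 and 316 CPM. In the Mmp12 gate reversed against day 7 was -0.12 (-0.23 to -0.01). The higher Lpl of all reversed phagocytes went with a larger Mmp12 gate, 11.2% of phagocytes against 5.00% at day 7, and with the gates held at their day 7 mix the ratio was 0.19 in place of 0.56.

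Within the Mmp12 gate 4 of 9 genes (Gpnmb, Fabp5, Trem2 and Abca1) were at least 2-fold higher after reversal than at day 7, against 2.70% of 5807 genes tested there, and 0 were 2-fold lower, against 2.07%. Gpnmb was 180 CPM against 8.14 CPM, a log2 ratio of 4.31 (3.42 to 5.30), and Fabp5 was 687 CPM against 79.6 CPM, a ratio of 3.09 (2.77 to 3.43). The share of cells with a Fabp5 UMI was nearly the same (36.6% and 34.2%), and 8 of the 71 reversed cells, those with at least 2 Gpnmb UMIs, held 409 of the 515 Fabp5 UMIs, with 187 in 1 cell. Cells of this gate without Gpnmb held 177 CPM of Fabp5 after reversal and 55.9 CPM at day 7. Trem2 was 363 CPM against 137 CPM, a ratio of 1.40 (1.11 to 1.70). Abca1 was 105 CPM against 39.8 CPM (1.38, 0.84 to 1.94) and Cd36 was 329 CPM against 167 CPM (0.97, 0.69 to 1.25). The 8 reversed cells above also held 133 of 135 Gpnmb, 119 of 272 Trem2 and 40 of 79 Abca1 UMIs. In the reversed cells without Gpnmb, read below, Trem2 and Abca1 were less than 2-fold above the day 7 level of the whole gate. Cd9 gave 0.58 (0.37 to 0.80) and Apoe 0.40, while the interval of Abcg1 included 0 (0.25, -0.18 to 0.69). The gate choice mattered for Gpnmb. With gates taken on cells thinned to 1000 UMIs, 42 reversed cells were placed in the Mmp12 gate, with 29.8 CPM of Gpnmb and 372 CPM of Fabp5. The 73 day 7 cells placed there held 0 UMIs of Gpnmb and 62.0 CPM of Fabp5.

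**Figure D2:**
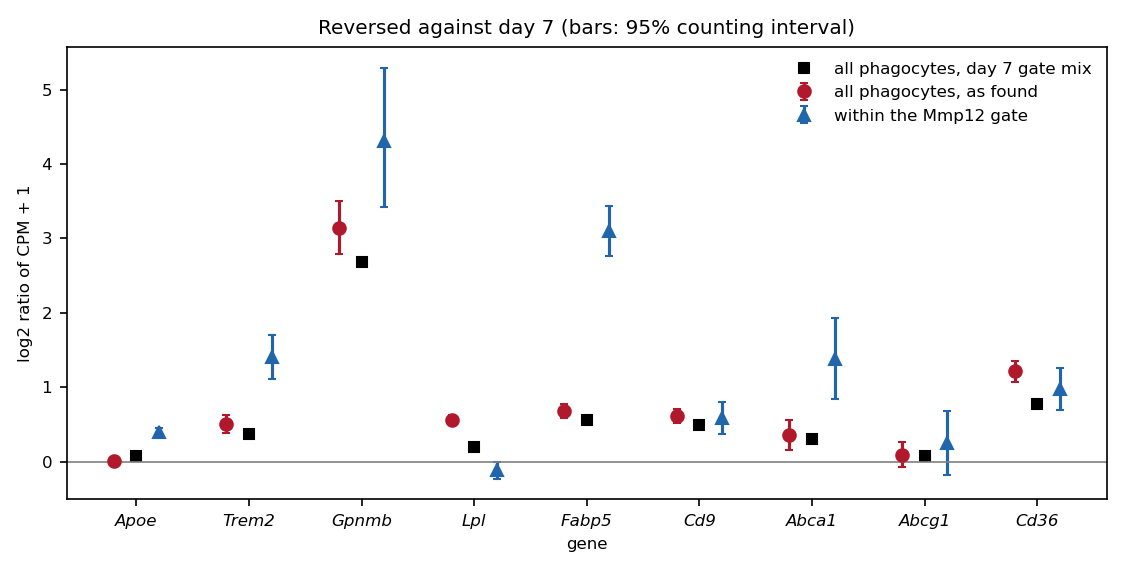
Log2 ratio of CPM + 1, reversed against day 7, for each gene in all phagocytes as found (circles, 95% counting interval), in all phagocytes at the day 7 gate mix (squares) and within the Mmp12 gate (triangles, 95% counting interval). Gpnmb and Fabp5 are furthest from 0 within the Mmp12 gate (4.31 and 3.09), while Lpl lies at -0.12 there.

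Fabp5 had a second site. The Ccr7 dendritic gate, for migratory dendritic cells, held 1646 CPM at day 7 (105 cells) and 1292 CPM after reversal (32 cells), the highest of all gates in both libraries. Lpl (362 and 790 CPM) and Abcg1 (99.5 and 76.7 CPM) were also found in these cells. Trem2 stood at 30.9 and 23.0 CPM there, and Gpnmb had 0 and 2 UMIs. Fabp5 was therefore highest in a dendritic gate in both libraries, with the Mmp12 gate next after reversal. Day 7 against day 2, it was higher in the C1q, type 1 dendritic and type 2 dendritic gates (1.11, 1.54 and 1.16). It was lower in the Ly6c2 monocyte gate (-0.51, -0.79 to -0.23), and the intervals of the Ace-type monocyte and Mmp12 gates included 0.

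Trem2 was low in the type 1 and Ccr7 dendritic gates. In the type 2 dendritic gate it was 33.3, 90.4 and 61.3 CPM at day 2, day 7 and after reversal, and at day 7 its interval (80.1 to 102) overlapped that of the Ace-type monocyte gate (75.6 to 112). In the type 1 dendritic gate Trem2 was 27.9, 39.1 and 18.0 CPM at day 2, day 7 and after reversal. Abca1 there, at 2.32 (1 UMI), 8.70 and 7.00 CPM, was the lowest of the gates compared. In each library its interval overlapped that of another gate, so this rank is not resolved. Cd9 did not follow, with 283, 275 and 290 CPM in the type 1 dendritic gate. Trem2 in the C1q gate was 233, 167 and 241 CPM, with 113 CPM in sham (7 UMIs). At day 2 its level in the Ly6c2 monocyte gate, 237 CPM (217 to 258), lay within the interval of the C1q gate (205 to 263).

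**Figure D3:**
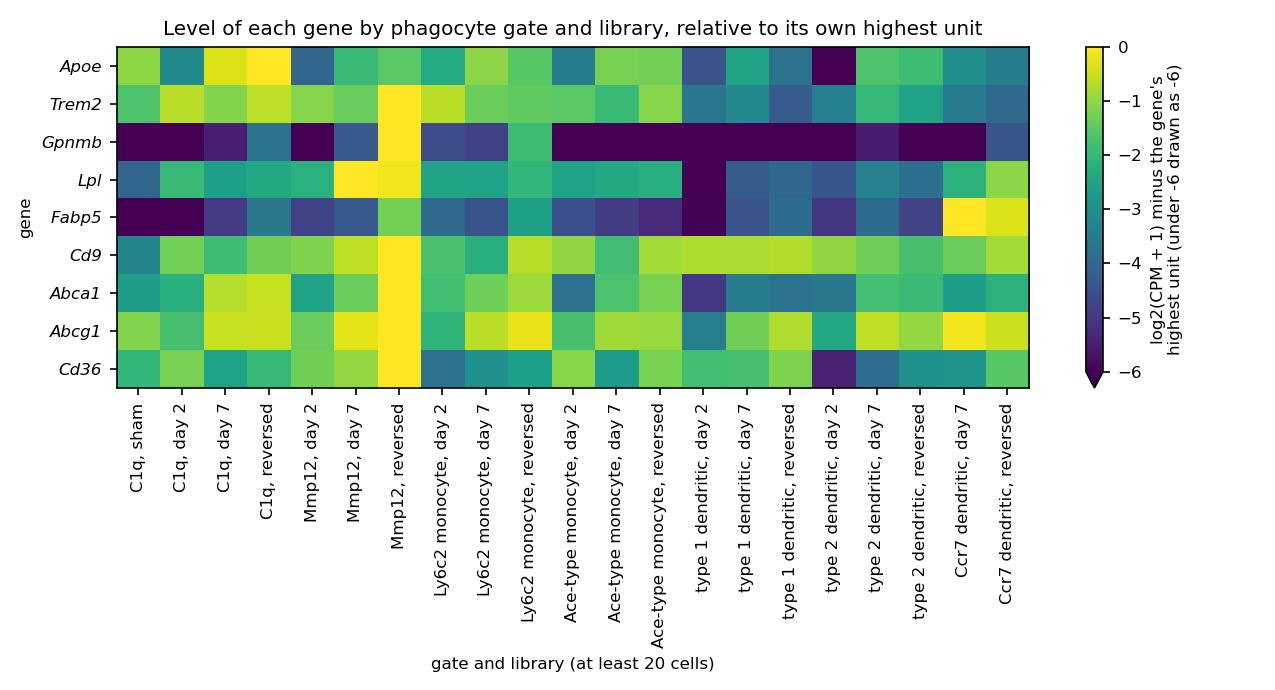
Level of each gene as log2(CPM + 1) minus that of the gene's highest unit, for 21 combinations of gate and library with at least 20 cells (colour scale, 0 is the highest unit). Of the 9 genes, Trem2, Gpnmb, Cd9, Abca1, Abcg1 and Cd36 peak in the reversed Mmp12 gate, Lpl in the day 7 Mmp12 gate, Fabp5 in the day 7 Ccr7 gate and Apoe in the reversed C1q gate. For Abca1, Abcg1 and Lpl the counting interval of the peak overlaps that of another unit, so those peaks are not resolved.

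Gpnmb UMIs lay in few cells. At least 2 Gpnmb UMIs were found in 0 of 69 sham phagocytes, 2 of 539 at day 2, 12 of 2342 at day 7 (0.512%, exact interval 0.265% to 0.893%) and 14 of 636 after reversal (2.20%, 1.21% to 3.67%). The 14 reversed cells held 194 of the 201 UMIs, and the highest single cells held 57, 38 and 29. In reversed T or NK cells there were 3 Gpnmb UMIs in 3 of 274 cells. Of the 14 cells, 8 lay in the Mmp12 gate, 3 in the C1q gate and 2 in the Ly6c2 monocyte gate. They were deep, with a median of 15763.5 UMIs against 6712 in the 615 reversed phagocytes without Gpnmb, and a cell with more UMIs is more likely to pass a minimum of 2.

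The other genes were compared between these 14 cells and those 615, as a description of cells chosen by Gpnmb. Fabp5 was 2730 CPM against 155 CPM, a log2 ratio of 4.13 (3.97 to 4.29). It was uneven among the 14 cells: 4 of them held 419 of their 573 Fabp5 UMIs, and 4 held 2 or fewer, among them the cell with 38 Gpnmb UMIs. Abca1 was 272 CPM against 42.7 CPM (2.64, 2.19 to 3.07) and Trem2 786 CPM against 144 CPM (2.44, 2.19 to 2.69), with a Trem2 UMI in 14 of 14 cells. Lpl and Cd9 both gave 1.77, Cd36 1.42, Abcg1 0.88 and Apoe 0.74. Of the 8, 6 were at least 2-fold higher (all but Abcg1 and Apoe), against 6.59% of 9018 genes tested in these cells, and 0 were 2-fold lower, against 20.4%.

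Against the 61 reversed Mmp12-gate cells without Gpnmb, the order was different. Those held 177 CPM of Fabp5 and 252 CPM of Trem2, below the Gpnmb cells, but 1541 CPM of Lpl and 310 CPM of Cd36, near the 1477 and 343 CPM of the Gpnmb cells. Abca1 was 61.7 CPM against 272 CPM, Apoe 7631 CPM against 21571 CPM, Cd9 412 CPM against 810 CPM and Abcg1 108 CPM against 133 CPM. Lpl, Cd36 and Abcg1 thus differed least between these 2 groups of cells.

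At day 7 the 12 Gpnmb cells against 2317 without gave a similar list. Fabp5 was 880 CPM against 157 CPM (2.48, 2.20 to 2.75), Abca1 195 CPM against 39.7 CPM (2.26, 1.63 to 2.84) and Trem2 483 CPM against 115 CPM (2.06, 1.67 to 2.42). Cd9 gave 1.47 and Apoe 1.14, and the intervals for Lpl, Abcg1 and Cd36 included 0. Only 3 of these 12 cells lay in the Mmp12 gate.

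**Figure D4:**
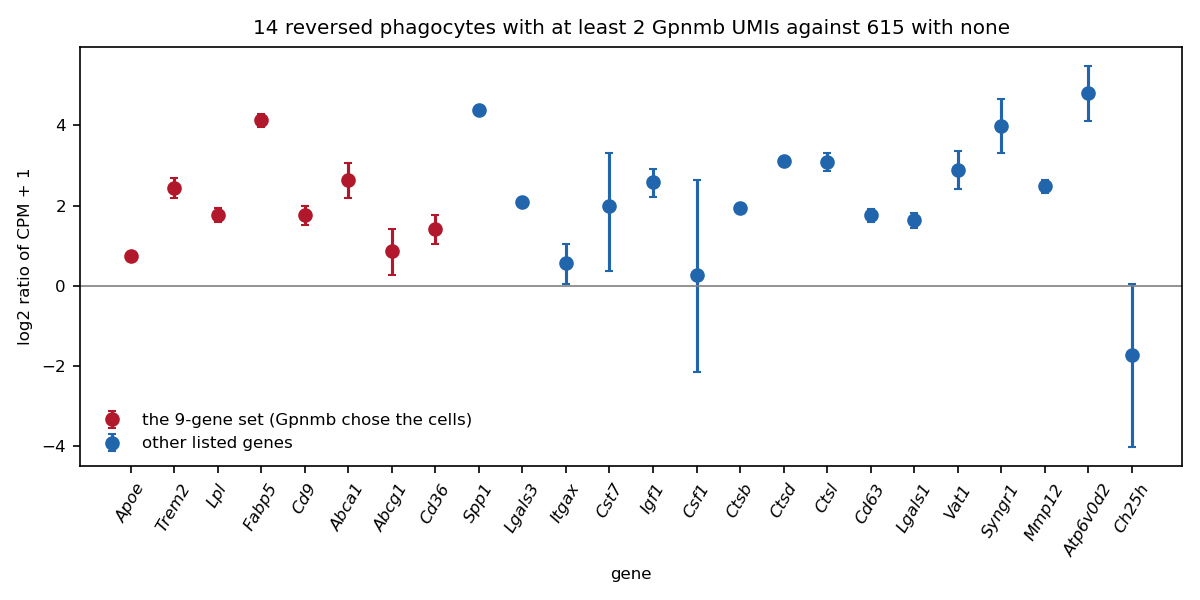
Log2 ratio of CPM + 1 in the 14 reversed phagocytes with at least 2 Gpnmb UMIs against the 615 with 0, for the 8 other genes of the set (red) and for 16 related genes (blue), with 95% counting intervals. Fabp5 (4.13) leads the set, and Atp6v0d2 (4.80) and Spp1 (4.40) lead the related genes.

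Genes outside the 9 that are known from lipid-associated and disease-associated phagocytes were read in the same cells. Atp6v0d2, a lysosomal proton pump subunit, gave 4.80 (39 UMIs, in 7 of the 14 cells), and Spp1, the secreted phosphoprotein osteopontin, 4.40. Syngr1 gave 3.99, and the lysosomal proteases Ctsd and Ctsl 3.12 and 3.10. Mmp12 gave 2.48. Ch25h, cholesterol 25-hydroxylase, gave -1.72 (-4.02 to 0.05). The 12 day 7 Gpnmb cells had another order, with Syngr1 at 5.40, Ctsd at 3.43 and Ctsl at 2.63. Spp1 gave 1.29 and Mmp12 0.92 there, and Atp6v0d2 had 0 UMIs. Doublet scores of the 14 cells reached 0.119, the lowest score removed as a doublet in that library, so the highest lay at the limit. T cell markers summed to 224 CPM in them against 84.9 CPM in the 615, B cell markers to 0 against 35.6 CPM, and proximal tubule markers to 1177 against 1492 CPM. Fibroblast or mural markers summed to 4.76 against 44.0 CPM. Markers of tubule cells other than proximal were not summed, and Atp6v0d2 was among the top genes of a cluster of intercalated cells, a tubule class. Spp1 was 11223 CPM in reversed tubule cells other than proximal and 20396 CPM in reversed fibroblast or mural cells. The part of doublets in this group was not tested.

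In all phagocytes, this outside list of 16 detected genes had 4 of 16 tested at least 2-fold higher in reversed against day 7 and 0 lower, against the 2.44% and 0.680% of all genes given above, with Syngr1 at 1.29, Mmp12 at 1.21 and Atp6v0d2 at 1.20. Part of this lay in the 14 Gpnmb cells, with 39 Atp6v0d2 UMIs against 27 in the 615 and 32 Syngr1 UMIs against 41. In cells without Gpnmb, Atp6v0d2 was 5.69 CPM after reversal and 5.17 CPM at day 7, so its 2-fold difference was not seen there. Syngr1 was 8.63 and 3.81 CPM in those cells, and Mmp12 361 and 185 CPM. In day 2 against sham the outside list had 6 of 14 higher and 0 lower, against 17.7% and 8.45% of all genes, led by Spp1 at 4.71 (3081 against 117 CPM). In day 7 against day 2 there were 2 of 16 higher (Igf1 1.69 and Csf1 1.29) and 2 lower (Lgals1 -1.60 and Spp1 -1.42), against 7.09% and 2.77%. Spp1 was 117, 3081, 1152 and 929 CPM in sham, day 2, day 7 and reversed phagocytes, and 134, 2358, 1006 and 412 CPM in T or NK cells. The ratio of phagocytes to T or NK cells was largest after reversal, and the difference in CPM was largest at day 2. Tubule cells other than proximal held 2406, 54299, 31055 and 11223 CPM, and how much of the phagocyte ratios is free tubule RNA was not tested.

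The sterol-regulated list, 17 genes of sterol sensing, synthesis and transport, showed 0 genes past 2-fold in either direction at day 7 against day 2 and 0 at reversed against day 7, with medians of 0.13 and 0.18. The shares of all genes past 2-fold were 7.09% higher and 2.77% lower, and 2.44% and 0.680%, so a count of 0 in a list of 17 is near the background. In reversed against sham 4 of 17 were higher and 1 lower, against 16.9% and 4.96%. Its highest ratios at reversed against day 7 were Nr1h3 (LXR alpha) at 0.84, Insig1 at 0.75 and Npc1 at 0.44. At day 7 against day 2 Mylip, an LXR target that degrades the LDL receptor, gave 0.89. The ratios of Abca1 and Abcg1 in that comparison, 1.08 and 1.41, were above the highest of these 17. The interval of Mylip (0.54 to 1.25) overlapped those of both Abca1 and Abcg1.

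Among scavenger receptors, Msr1 was 15.6, 140, 68.2 and 62.1 CPM in sham, day 2, day 7 and reversed phagocytes, highest at day 2. Mrc1 was 58.6, 86.0, 245 and 210 CPM, highest at day 7. Of the 9 tested at reversed against day 7, 1 was 2-fold higher (Olr1, 2.04) and 0 lower, against 2.44% and 0.680% of all genes. In the lipid droplet and fatty acid list 1 of 16 was 2-fold higher in that comparison (Fabp3, 1.53) and 1 lower (Fabp4, -1.07), and Lipa, the lysosomal acid lipase, gave 0.68. Fabp4 also marks endothelium, and the part of free RNA in its value was not tested. Tyrobp, the signalling partner of Trem2, lay between 1929 and 2365 CPM in the 4 libraries, and its largest ratio was -0.29 (reversed against sham), while Trem2 differed by up to 1.96.

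Likeness over 22 units is given as Pearson's r of log2(CPM + 10) among 4491 genes, a description in which units share libraries and free RNA. The units are the gates compared in each library, with the 27 day 7 phagocytes in no gate as a further unit. Apoe was most like Ms4a7 (0.95), Sepp1 (0.91) and Itm2b (0.91), and Trem2 like Ctsb (0.94), BC005537 (0.92) and Cd14 (0.90). Abca1 was most like Pld3 (0.92), Timp2 (0.87) and P2rx4 (0.87), and Lpl like Tnfsf12 (0.89), Il1rn (0.86) and Rhoc (0.86). Abcg1 was most like Rab8b (0.85), Slc39a1 (0.85) and Ptafr (0.84), and Fabp5 like 1700047I17Rik2 (0.89), Gadd45b (0.87) and Btg1 (0.84). The highest values were lower for Gpnmb (Atp6v1a 0.79, Amdhd2 0.78, Pdpn 0.77), Cd9 (Gpr137b 0.79, Ndufa1 0.78, Isy1 0.78) and Cd36 (Ucp2 0.72, Cadm1 0.71, Acsl4 0.69). Gpnmb was 180 CPM in the reversed Mmp12 gate, 48.9 CPM in the reversed Ly6c2 monocyte gate and at most 12.9 CPM elsewhere. Its r values, also those with the other members, thus lean on few units.

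Among the 9 genes, 32 of the 36 pairs had a positive r over these units, with a median of 0.42. Over all pairs of the 4491 genes, 55.5% were positive and the median was 0.054. Abca1 had its highest r with Apoe (0.77), Trem2 (0.70) and Gpnmb (0.67). The lowest pair was Cd9 with Apoe at -0.37, and Fabp5 with Trem2 gave -0.18. Cd36 with Fabp5 gave 0.01.

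The Smart-seq2 wells gave a reading without UMIs and without time points. Of 768 wells, 416 passed 500 genes and 50000 gene reads, and 357 of these were called phagocytes, with a median of 449808 reads. At least 10 Apoe reads were found in 98.3% of phagocyte wells, at least 10 Abcg1 reads in 37.5%, Cd36 in 37.3%, Lpl in 37.0%, Cd9 in 33.6%, Trem2 in 28.9%, Abca1 in 21.6% and Fabp5 in 10.9%. Gpnmb reached 10 reads in 1 well of 357 (0.280%), a C1q-gate well with 851 CPM.

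In the wells Apoe was higher in the C1q gate and Lpl in the Mmp12 gate, the order also seen in the day 7 droplets. Mean Apoe was 19924 CPM in 130 C1q-gate wells and 2151 in 15 Mmp12-gate wells. Mean Lpl was 417 and 891 CPM in those gates, with 10 or more reads in 52 of 130 and 10 of 15 wells. Mean Cd36 was 511 and 625 CPM, and Fabp5 had 0 reads in the 15 Mmp12-gate wells. Single wells varied widely, with Apoe from 2.24 to 136716 CPM and Abcg1 from 0 to 12703.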

How the data were processed

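The labels name 4 droplet (10x 3′ V2) libraries and 1 Smart-seq2 sample, each a pool of 3 mice. The deposited droplet matrices hold raw UMI counts, and the deposited Smart-seq2 table holds raw read counts by well. Per the submitters' processing notes, Cell Ranger, STAR, GRCm38 and mm10 were used, without versions or roles. ERCC spike-in rows were 1.51% of the Smart-seq2 reads and stayed out of totals.

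Barcodes under 200 genes or over 50% mitochondrial UMIs were dropped. Scrublet's own threshold marked 1 to 3 cells per library, a failed call, so the top-scoring cells were dropped instead, 0.8% for each 1000 cells. This left 3753 sham, 2157 day 2, 4292 day 7 and 3151 reversed cells. Cells were clustered together, without the 9 genes (scanpy 1.11.5, 2000 variable genes, 30 principal components, 15 neighbours, leidenalg 0.10.2, resolution 1). Of 32 clusters, 8 were phagocytes and 2 stayed unnamed. Some phagocyte clusters were led by chemokine, cell cycle or haemoglobin genes, the last in the Xcr1 cluster. The immediate-early genes Atf3 and Fos were among the top genes of a cluster led by Ccl4 and Ccl3.

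A cell met a gate with at least 2 UMIs of its markers making up 2 per 10000 UMIs (20 per 10000 for C1q), in the order type 1 dendritic, Ccr7 dendritic, plasmacytoid, type 2 dendritic, Ace-type monocyte, Ly6c2 monocyte, Mmp12 and C1q. A further gate is not reported here. Counts were summed and given as CPM, with exact Poisson, Clopper-Pearson and conditional binomial intervals. Genes with at least 30 UMIs over 2 libraries were the background. TMM (edgeR 4.0.16) and DESeq2 1.42.0 size factors, thinning, equal cell weights, another pseudocount, filters, gate thresholds and free-RNA subtraction were alternatives. The interval code was checked on simulated counts.

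Named genes are the 9 members, up to 3 extremes of each related list in a comparison, and the 3 most like genes. The members and lists were chosen with earlier results of these data known. The Gpnmb cells, the comparison without the highest cells and the day 7 gate mix were added after seeing the data. Python 3.11.15 and R 4.3.3 were used.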

Additional observations from a re-analysis of the deposited data

Results flagged for a closer look

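Some genes differed in opposite directions in 2 phagocyte gates of the same comparison, with counting intervals on either side of 0. The difference between gates was not tested, and the pairs were picked as the extremes.

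In reversed against day 7, Apoe gave a log2 ratio of 0.40 in the Mmp12 gate and -1.23 in the type 1 dendritic gate. Trem2 gave 1.40 in the Mmp12 gate and -1.08 in the type 1 dendritic gate. In the first, 8 of 71 reversed cells held 119 of 272 Trem2 UMIs. Fabp5 gave 3.09 in the Mmp12 gate and -0.88 in the type 2 dendritic gate, the first with 409 of 515 reversed UMIs in 8 of 71 cells. Cd9 gave 1.55 in the Ly6c2 monocyte gate and -0.44 in the type 2 dendritic gate. In the Ly6c2 monocyte gate, 2 of the 35 reversed cells held 27 and 12 of the 80 Cd9 UMIs. The share of its cells with a Cd9 UMI was 40% after reversal and 38.6% at day 7. Lpl gave 1.12 in the Ccr7 dendritic gate and -0.48 in the type 2 dendritic gate. In the Ccr7 dendritic gate 9 of 32 reversed cells (28.1%) held all 206 Lpl UMIs, and 34 of 105 day 7 cells (32.4%) had an Lpl UMI.

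In day 7 against day 2, Lpl gave 2.17 in the Mmp12 gate and -0.67 in the C1q gate. Trem2 gave 1.42 in the type 2 dendritic gate and -0.75 in the Ly6c2 monocyte gate. Cd36 gave 1.59 in the type 2 dendritic gate and -1.63 in the Ace-type monocyte gate. Fabp5 gave 1.54 in the type 1 dendritic gate and -0.51 in the Ly6c2 monocyte gate. Cd9 gave 0.58 in the Mmp12 gate and -0.84 in the Ace-type monocyte gate. The free phagocyte RNA share in T or NK cells moved with both comparisons (3.19% at day 2, 10.7% at day 7, 4.05% after reversal), and its part was not tested. Gates also held unlike cells, whose part was not tested either. At day 2, day 7 and after reversal the median of the C1q genes was 4.20, 134 and 89.8 per 10000 UMIs in the Ace-type monocyte gate. In the Ly6c2 monocyte gate it was 3.02, 99.3 and 12.7.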

How the results depend on the processing

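Of 351 log2 ratios of single genes under alternatives, 265 kept within their counting interval, 84 moved and 2 turned direction: Cd9 at day 7 against day 2 was 0.49 with phagocytes called cell by cell, and Cd36 in that comparison was 0.029 with equal cell weights. The count at least 2-fold higher in day 2 against sham (5 with Gpnmb, which had too few UMIs) was 3 with a pseudocount of 10 CPM. In reversed against day 7 the count was 1 under thinning to 1000 UMIs, equal weights and the day 7 gate mix. Its median was 0.44 thinned, 0.40 with equal weights, 0.45 with TMM scaling, 0.43 without the 3 highest cells and 0.38 at the day 7 gate mix. Without the 3 highest cells the median of reversed against sham was 3.17, but Fabp5, Abca1 and Gpnmb were then at 0 in sham, and with these 3 at their bound against the sham floor it was 2.06. Without a minimum of 30 UMIs, 12.8% of genes were 2-fold lower in day 2 against sham and 8.01% in reversed against sham. With free RNA subtracted, 27 of 36 ratios stayed within their interval and all counts were kept; Lpl was 2.71 in day 2 against sham and 3.68 in reversed against sham (1.84 and 2.75 without). The cell-by-cell call left too few sham and reversed cells, so it was run for day 7 against day 2 only, and the low-count filter bears only on the background. The causes were not tested. Of 405 gate levels under other gate rules, 181 moved beyond their interval. Sham depth (256184 phagocyte UMIs) limits every value that rests on it. No paired analysis was possible because each time point has 1 library and the labels give no shared replicate numbers.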
